A study of Homo sapiens with 46 samples.

Results

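Soluble nuclear RNA was set against cytoplasmic RNA in endoderm cells grown from H1, an established human pluripotent stem cell line. The comparison held 6 of the 46 libraries of the study: 3 of the nucleoplasm and 3 of the cytoplasm, chosen by their titles, and each counted over 13644 genes. H1 cells had been turned into endoderm in a serum-poor medium with WNT3A and 100 ng/ml activin A, and both fractions came from cells treated alike. Cells were opened with 0.05% NP-40, a mild detergent, and spun over sucrose. The supernatant was taken as cytoplasm. The pellet was then lysed with 1% NP-40 and 1 M urea, and what this released was taken as nucleoplasm, while the remainder was kept as chromatin. Nothing in the labels says that the libraries of a group came from separate cultures, so p-values measure the spread between these libraries, which may be technical. The cells are 1 line in culture and were not sorted, and the labels name no step that separates the endoplasmic reticulum (ER) or mitochondria from nuclei.

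As background, mRNAs for secreted and membrane proteins are translated by ribosomes docked on the ER, whose membrane is continuous with the outer nuclear envelope. Most other mRNAs are translated by free ribosomes in the cytosol. The mitochondrial genome is transcribed and translated inside mitochondria. Some long noncoding RNAs (lncRNAs), such as MALAT1, stay in the nucleus, and transcripts that keep an intron are often held there. What a fraction holds depends both on where an RNA lies and on which structures a detergent sets free.

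The nucleoplasm libraries held 13111204 to 14380588 counts and the cytoplasm libraries 15955662 to 18360084. Between 1.09% and 3.15% of these counts lay on transcripts with no Ensembl gene. Replicates were never identical, and their counts differed by more than sampling noise in each pair. The nucleus and chromatin libraries enter the shared estimate of the spread and are given beside some results as levels. Nucleus replicate 1 stood apart, with a chi-squared per degree of freedom of 141 and 96.9 against the other nucleus libraries and 27.9 between the latter. With the 6 nucleoplasm and cytoplasm libraries alone 9511 genes were called. Levels below are given in CPM, counts scaled to a common library size with TMM, a factor per library that sets the typical gene equal. They are relative levels, so the number of molecules per cell in each fraction is not known, and PCR copies are not independent molecules. TMM factors were 0.781 to 0.792 in nucleoplasm and 1.31 to 1.33 in cytoplasm, so CPM are not plain shares of a library. Percentages of a library are of its unscaled counts. Counts are not corrected for gene length, so only the authors' TPM, which are, are used to set genes against each other.

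The endoderm label was checked against a list of 29 endoderm genes, of which 26 were measured. Their summed level ran from 6873 to 7551 CPM in nucleoplasm and from 1025 to 1271 CPM in cytoplasm. Most of the nucleoplasm sum came from CDH1, EPCAM and CDH2, at means of 2323, 1994 and 1869 CPM, and CDH1 and EPCAM are epithelial genes that pluripotent cells express too. The regulators SOX17, GATA4, GATA6 and FOXA2 were detected in each of the 6 libraries. Pluripotency genes were present too, with 18 of 23 measured and sums of 2914 to 2971 CPM in nucleoplasm and 4795 to 6234 CPM in cytoplasm. SOX2 was not analysed here. Of the mesoderm markers 11 of 24 were measured, at 675 to 720 CPM in nucleoplasm and 185 to 239 CPM in cytoplasm, and of the neuroectoderm markers 5 of 24, at 751 to 929 CPM against 365 to 425 CPM. The mesoderm sum came mainly from BMP4, KDR and PDGFRA and the neuroectoderm sum from NES, and SOX1 and SIX3 were not analysed here. In such bulk libraries, fewer cells of a type and less RNA per cell cannot be told apart.

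Of 12681 genes tested, 8296 (65.4%) differed between the fractions at an adjusted p under 0.05 by edgeR's quasi-likelihood test. There were 4078 genes higher in nucleoplasm (32.2%) and 4218 lower (33.3%), and the median over all genes was -0.05 on the log2 scale. The 3 nucleoplasm and 3 cytoplasm values did not overlap for 9892 genes (78.0%). Both directions thus had nearly the same number of genes, but not the same size of change. At least 4-fold higher were 1544 genes, against 88 that were at least 4-fold lower, and 699 genes were at least 8-fold higher against 11 lower. Of the calls 49.2% were higher under TMM, but 24.9% when libraries were scaled to total counts, which moved the median of all genes to -0.80. With upper-quartile scaling 43.1% of calls were higher, and with the authors' TPM plus 1 it was 37.8%. Changes are therefore best read against the median of all genes, and lists whose sign turned with the scaling are named as such below.

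**Figure D1:**
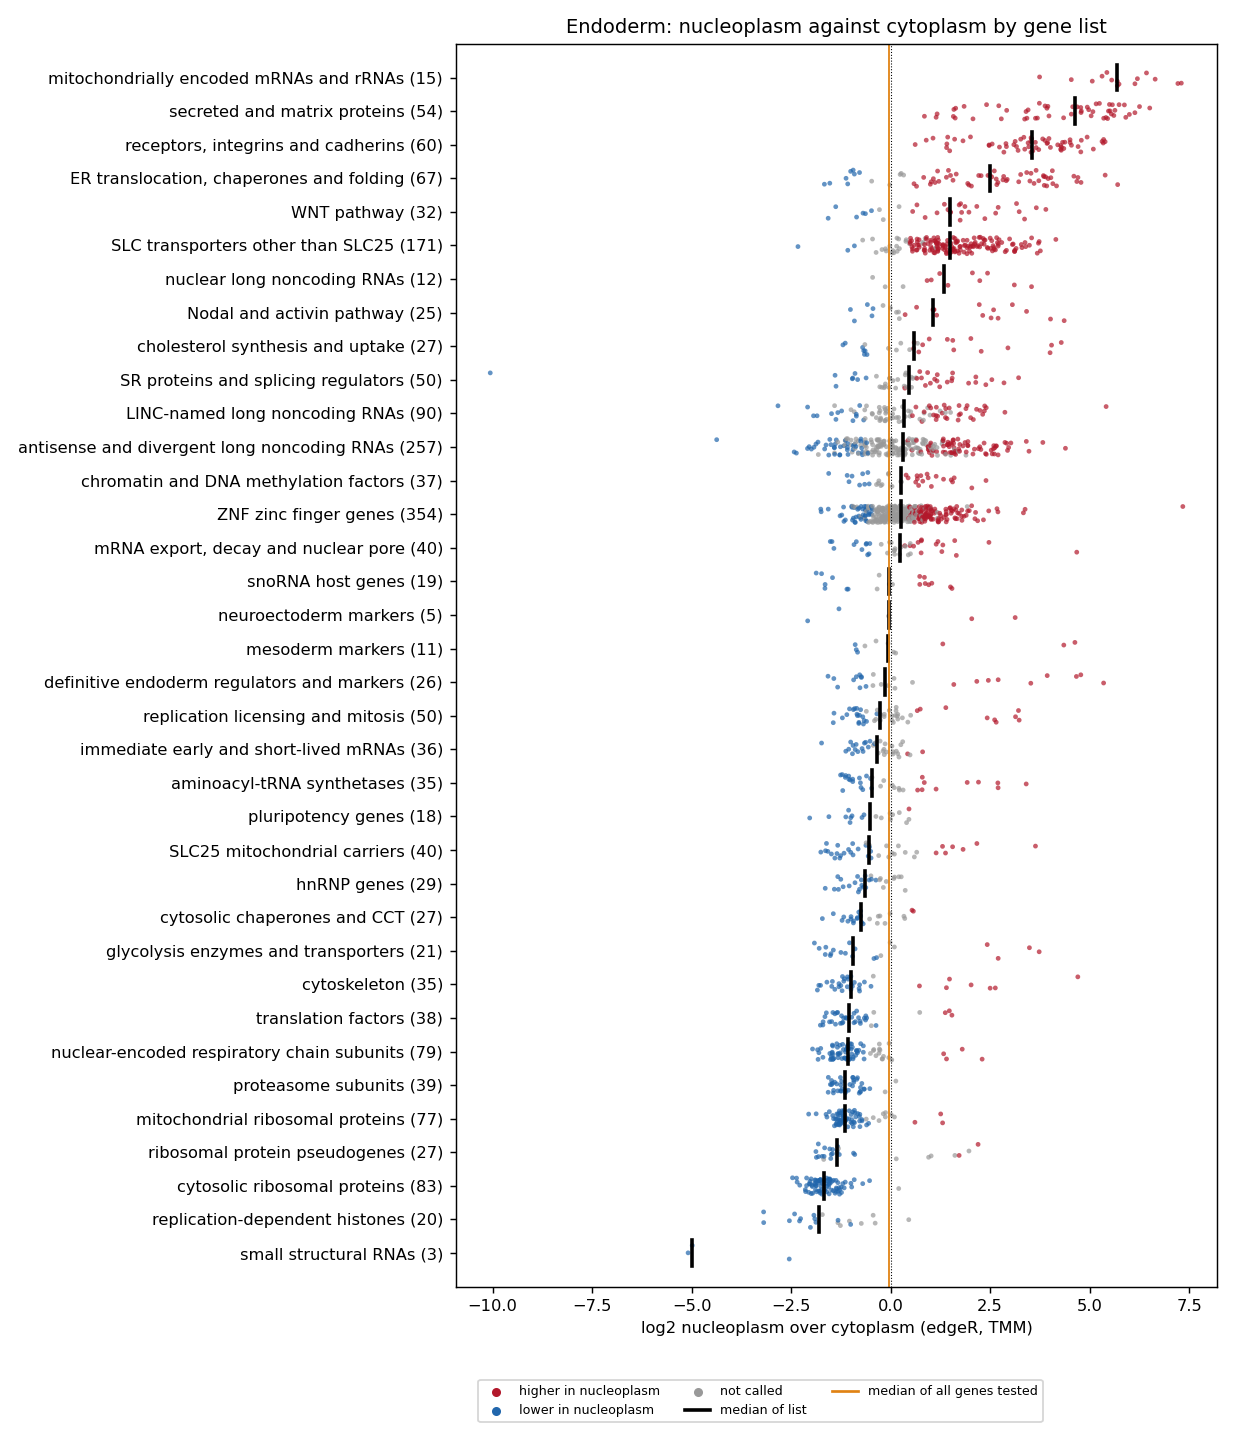
Each point is 1 tested gene of a list (number of genes in brackets), placed by its log2 difference of nucleoplasm over cytoplasm; black bars are list medians, the orange line the median of all genes tested (-0.05). Mitochondrially encoded RNAs, secreted and matrix proteins and receptors lie far to the right (medians 5.70, 4.63 and 3.56), and ribosomal proteins, proteasome subunits and histones to the left (medians -1.67, -1.14 and -1.80).

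The first codons of genes from both sides of this range are printed here, chosen with earlier results of these data known. They are shown because many secreted and membrane proteins begin with a stretch of greasy residues, the signal that leads the ribosome to the ER. Phenylalanine, leucine, isoleucine, methionine and valine are the amino acids whose codons carry T at the second position. The lines give the first 30 codons from GENCODE 29 transcripts on GRCh38, 5′ to 3′, with each such T in capitals. HSPA5, COL4A1, FN1, KIT, CDH1 and CER1 code for luminal, secreted or membrane proteins, and the other five for proteins of the cytosol or nucleus.
HSPA5: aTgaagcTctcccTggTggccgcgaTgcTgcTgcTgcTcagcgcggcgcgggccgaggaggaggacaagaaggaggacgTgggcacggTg
COL4A1: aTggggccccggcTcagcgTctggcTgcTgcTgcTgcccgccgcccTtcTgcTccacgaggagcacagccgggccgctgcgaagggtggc
FN1: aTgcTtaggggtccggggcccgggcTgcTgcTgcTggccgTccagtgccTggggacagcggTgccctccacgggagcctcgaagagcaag
KIT: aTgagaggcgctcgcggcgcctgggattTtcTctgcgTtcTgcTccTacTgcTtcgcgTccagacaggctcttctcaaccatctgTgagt
CDH1: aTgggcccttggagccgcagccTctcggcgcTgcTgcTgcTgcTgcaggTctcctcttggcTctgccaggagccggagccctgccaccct
CER1: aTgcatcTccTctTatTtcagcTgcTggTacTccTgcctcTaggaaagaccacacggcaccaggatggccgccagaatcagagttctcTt
GATA6: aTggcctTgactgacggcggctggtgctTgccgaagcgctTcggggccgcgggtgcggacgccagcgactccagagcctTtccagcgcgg
POU5F1: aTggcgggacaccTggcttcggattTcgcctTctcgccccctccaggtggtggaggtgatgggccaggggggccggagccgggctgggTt
ACTB: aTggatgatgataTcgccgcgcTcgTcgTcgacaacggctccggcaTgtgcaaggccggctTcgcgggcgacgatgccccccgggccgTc
GAPDH: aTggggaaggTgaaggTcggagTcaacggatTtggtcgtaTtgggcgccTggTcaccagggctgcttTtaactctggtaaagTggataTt
EEF1A1: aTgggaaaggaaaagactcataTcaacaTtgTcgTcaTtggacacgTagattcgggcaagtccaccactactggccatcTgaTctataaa

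The longest unbroken run of such codons was 5 in HSPA5, 4 in COL4A1, 4 in FN1, 6 in KIT, 5 in CDH1 and 5 in CER1. All of these RNAs were higher in nucleoplasm, by 5.70, 6.51, 6.25, 4.67, 5.35 and 2.45 on the log2 scale. Runs of 1, 1, 3 and 2 were found in GATA6, POU5F1, ACTB and GAPDH, which were lower, at -0.77, -2.03, -0.91 and -1.92. EEF1A1, a translation factor with no such signal, also had a run of 4 and was lower, at -1.70, so a run of this length does not separate the classes by itself. The genes lie at chr9:125234853-125241330 (minus strand, HSPA5), chr13:110148963-110307233 (minus, COL4A1), chr2:215360440-215436172 (minus, FN1), chr4:54657918-54740715 (plus, KIT), chr16:68737225-68835548 (plus, CDH1) and chr9:14719724-14722717 (minus, CER1).

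Over 11244 of the 11297 protein-coding genes tested that had a coding sequence, the nucleoplasm excess was larger at runs of 3 and more. Genes whose longest run within the first 30 codons was 1 had a median of -0.27 (2578 genes), and 23.5% of them were higher in nucleoplasm. Those with a run of 2, the most frequent class, had the same median of -0.27 (4940 genes), with 23.7% higher. With a run of 3 the median was -0.02 (2187 genes), with a run of 4 it was 0.42 (873 genes) and with a run of 5 it was 1.63 (320 genes). At runs of 7 to 14, 81.5% of 173 genes were higher in nucleoplasm and 5.20% lower, with a median of 2.30. Under total counts the median at a run of 4 turned to -0.33, beside -1.02 at a run of 1. A similar step was seen anywhere in the coding sequence, where membrane-spanning stretches would fall. Genes with at most 8 such codons in any window of 20 had a median of -0.70 (1496 genes), and those with 15 to 19 had a median of 1.65 (523 genes). Coding length moved with the difference as well (Spearman's rho 0.45 over the same genes), while the rho was 0.22 for the run at the start, 0.43 for the window count and -0.04 for the transcript's GC content. These rhos are across genes, which are not independent replicates. The window count separated genes within each band of coding length. Among the shortest coding sequences, of 37 to 349 codons, genes with 13 or more such codons in a window had a median of 0.71 against -0.88 for the rest. From 350 to 633 codons the medians were 1.44 and -0.33, and above that 2.07 and 0.22. Under total counts the first of these turned to -0.04 against -1.63, and the last pair to 1.32 against -0.53.

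**Figure D2:**
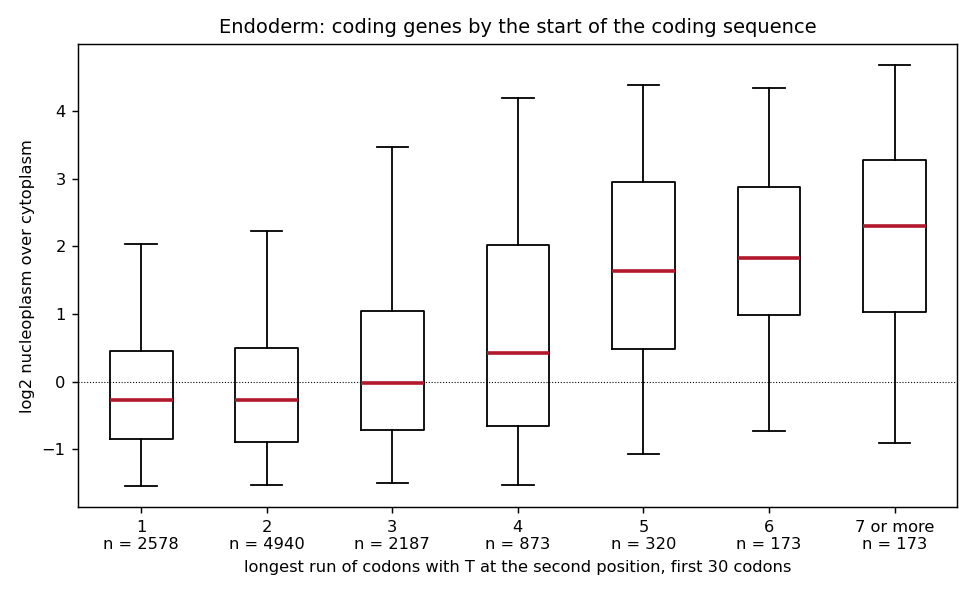
Log2 difference of nucleoplasm over cytoplasm (vertical) for protein-coding genes grouped by the longest run of codons with T at the second position in the first 30 codons (horizontal); boxes span the quartiles, red lines are medians and whiskers reach the 5th and 95th percentiles. Medians are alike at runs of 1 and 2 (-0.27) and rise to 2.30 at 7 or more, with wide overlap between neighbouring classes.

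RNAs made inside mitochondria differed most. All 15 mitochondrial mRNAs and rRNAs were higher in nucleoplasm, by 3.74 to 7.30 on the log2 scale with a median of 5.70, a 51.8-fold difference. Together they made up 11.4%, 10.2% and 11.9% of the nucleoplasm libraries and 0.425%, 0.460% and 0.423% of the cytoplasm libraries. MT-ND5, a subunit of respiratory complex I, stood at 8042, 7219 and 7535 CPM in nucleoplasm and at 49.6, 48.0 and 46.8 CPM in cytoplasm (log2 difference 7.30, SE 0.34). MT-CO1, the catalytic subunit of cytochrome c oxidase, stood at 45300, 39760 and 47450 CPM against 762, 934 and 862 CPM (5.70, SE 0.41). For both mRNAs each nucleoplasm library lay far above each cytoplasm library. The mitochondrial rRNAs MT-RNR1 and MT-RNR2 had the smallest differences of the 15, at 3.74 and 4.54. MTCO1P12, a nuclear pseudogene copied from MT-CO1, followed its source at 5.84, and reads of the pair may not be separable. The mitochondrial share was 1.32% to 1.54% in the chromatin libraries and 16.1%, 8.09% and 10.5% in the nucleus libraries, the first being the one that stood apart, so it was high in the pellet before nuclear lysis and low in what was left after it. Whether whole mitochondria were in the pellet was not tested. With the mitochondrial genes left out before scaling, 8269 genes were called.

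Secreted and extracellular matrix mRNAs came next. All 54 tested were higher in nucleoplasm, with a median of 4.63, or 24.8-fold. None of them overlapped between the fractions, beside 78.0% of all genes without overlap. Their share was 13.2% ± 0.67 (SD, n = 3) of the nucleoplasm libraries and 0.786% ± 0.093 of the cytoplasm libraries. FN1, which codes for fibronectin, a fibre of the matrix, stood at 71650, 62200 and 64190 CPM in nucleoplasm and at 992, 820.2 and 787 CPM in cytoplasm (6.25, SE 0.32, or 76.2-fold). It held the largest share of counts of any gene in nucleoplasm. COL4A1, a chain of basement-membrane collagen, stood at 9129, 8196 and 8972 CPM against 112, 96.6 and 79.9 CPM (6.51, SE 0.24), the largest of a nuclear-coded gene with a symbol and a mean of at least 10 CPM in the higher fraction. Its partner COL4A2 differed by 5.91, the proteoglycan VCAN by 6.14, fibrillin FBN2 by 5.997, COL18A1 by 5.55 and APLP2, a membrane relative of the amyloid precursor, by 5.16. In 50 of the 54 genes the cytoplasm had the lowest mean of all 4 endoderm fractions. The list is a selection of such genes: HMCN1, a large matrix protein outside it, was lower (-1.34, SE 0.52, adjusted p = 0.0332), at means of 1.63 CPM in nucleoplasm and 4.14 CPM in cytoplasm with overlapping libraries.

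In a selection of receptors, integrins and cadherins 60 of 60 were higher in nucleoplasm, with a median of 3.56. CDH1, or E-cadherin, which holds epithelial cells together, stood at 2508, 2197 and 2263 CPM in nucleoplasm and at 56.7, 60.6 and 53.5 CPM in cytoplasm (5.35, SE 0.20). The integrin ITGB1 was higher by 4.38, the lipoprotein receptor LRP1 by 4.94, the receptor phosphatase PTPRF by 3.82 and FGFR1, a receptor for fibroblast growth factors, by 1.82. No mRNA of the list was lower, and the groups overlapped for none, beside 78.0% of all genes without overlap. This list and the matrix list were chosen with earlier results of these data known, so their counts are no test of the whole class. Outside the list, the integrin ITGA2B (-0.47) and the ATP receptor P2RX5 (-1.43), both at low levels and looked up after values had been seen, were not called. Under scaling to total counts 56 of the 60, and 52 of the 54 matrix genes, were still called higher and none lower.

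The machinery of the ER itself was divided by where its protein sits. Of 67 genes for translocation, chaperones and folding, 54 were higher in nucleoplasm and 8 lower, with a median of 2.50. HSPA5, the ER chaperone BiP, stood at 6819, 6434 and 6703 CPM in nucleoplasm and at 141, 128.5 and 114 CPM in cytoplasm (5.70, SE 0.21). The cytosolic chaperone HSP90AA1 stood at 1403, 1351 and 1318 CPM against 1397, 1459 and 1256 CPM (-0.01, SE 0.29), with full overlap, whereas its ER relative HSP90B1 differed by 5.39. CALR, PDIA3 and the collagen chaperone SERPINH1 were higher by 3.60, 4.71 and 3.50. A division of the list into luminal or membrane and soluble proteins was made after values had been seen. Of 59 luminal or membrane proteins 53 were higher and 3 lower, and the 3 were SEC61G (-1.12), SEC61B (-1.08) and OST4 (-1.005), very small proteins with a single membrane anchor. Of the 8 soluble ones 1 was higher and 5 lower. SRP9 and SRP14, small subunits of the signal recognition particle that finds ER signals, were lower, at -1.67 and -1.53, while SRPRA, the part of its receptor on the ER surface, was higher at 1.50. XBP1, whose unspliced mRNA is known to be brought to the ER by its nascent protein, stood at -0.02 and was not called.

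Most transporters of the SLC families sit in the plasma membrane or other membranes of the secretory path, while the SLC25 family and a few others, such as SLC30A9, are found in mitochondria. Outside SLC25, 146 of 171 were higher in nucleoplasm and 3 lower, with a median of 1.49. The exceptions were SLC27A5 (-2.33), SLC35A4 (-1.08) and SLC30A9 (-0.91). SLC2A3, the glucose transporter GLUT3, stood at 14090, 13650 and 14260 CPM in nucleoplasm and at 1473, 1283 and 992 CPM in cytoplasm (3.49, SE 0.23). SLC3A2 and SLC7A3, which carry amino acids, were higher by 3.68 and 3.54, and SLC7A5 by 0.89. The SLC25 carriers lay the other way, with 7 of 40 higher and 21 lower and a median of -0.55. SLC25A6, SLC25A3 and SLC25A5, the adenine nucleotide and phosphate carriers, were lower at -1.76, -1.26 and -1.61, and SLC25A29 was higher at 1.82. Under total counts the transporters outside SLC25 still had 96 called higher and 17 lower.

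**Figure D3:**
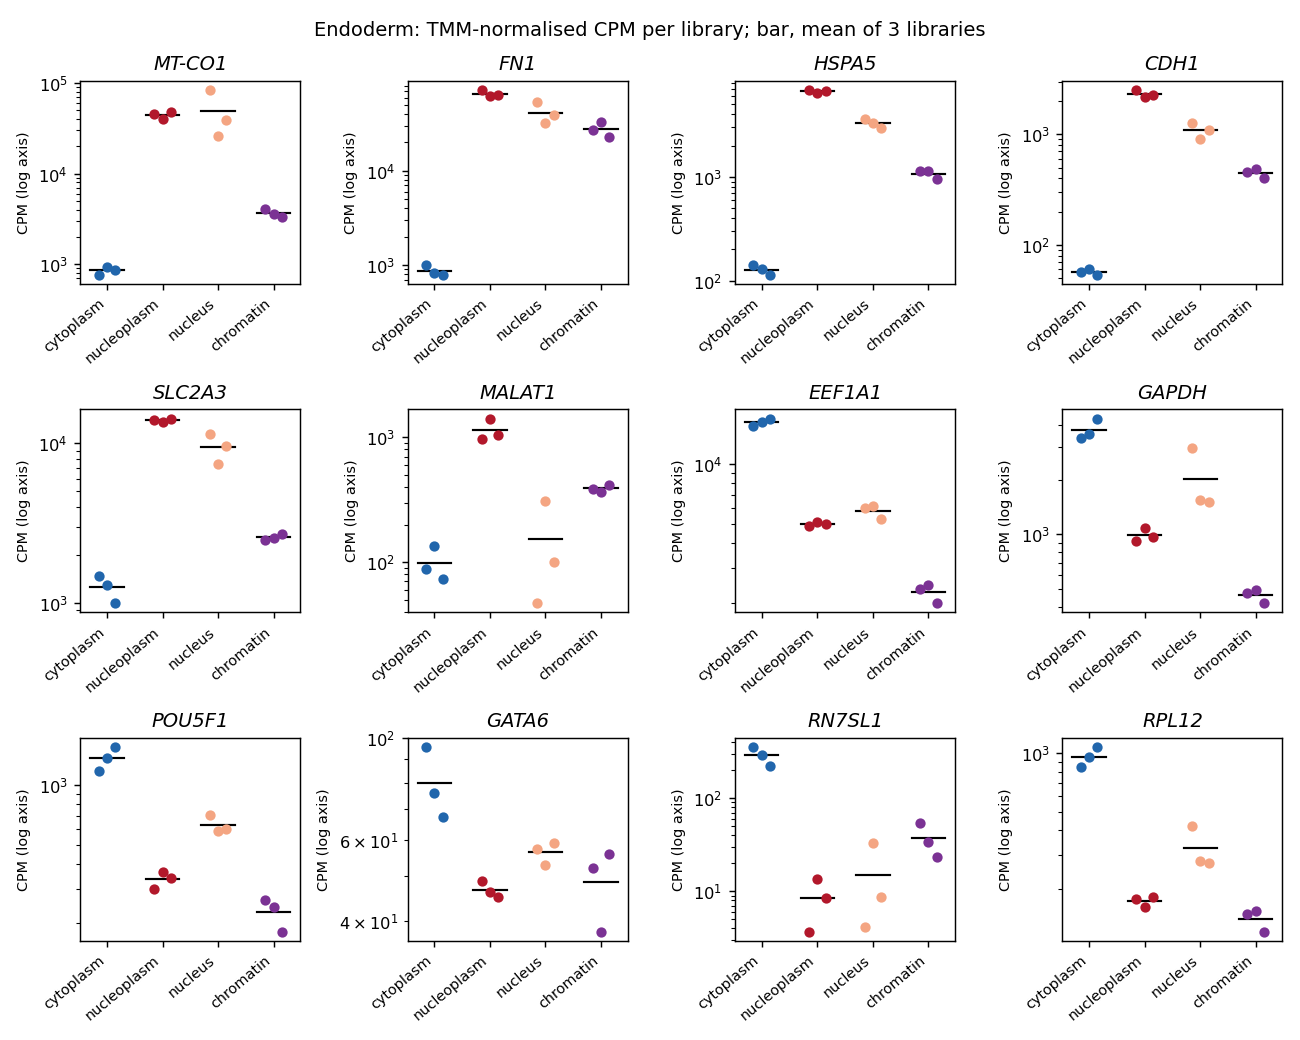
CPM per library on a log axis for 12 genes in the 4 endoderm fractions, 3 libraries each; bars are means of the 3. MT-CO1, FN1, HSPA5, CDH1, SLC2A3 and MALAT1 lie higher in each nucleoplasm library than in any cytoplasm library, and EEF1A1, GAPDH, POU5F1, GATA6, RN7SL1 and RPL12 lie lower.

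mRNAs for proteins of the cytosol lay on the cytoplasmic side. Of 83 cytosolic ribosomal protein genes 82 were lower in nucleoplasm, with a median of -1.67, or 3.17-fold, and RPS21 (0.20) was not called. Their share was 1.69% ± 0.041 of the nucleoplasm libraries and 9.20% ± 0.71 of the cytoplasm libraries (SD, n = 3 each). RPL12 stood at 178, 161 and 181 CPM in nucleoplasm and at 851, 951 and 1072 CPM in cytoplasm (-2.47, SE 0.19). RPL3, RPS2 and RPLP0 were lower at -1.79, -1.98 and -1.86. The near-identical copies of many ribosomal protein genes make single values uncertain: 17 of 27 ribosomal protein pseudogenes were also lower, and 2 higher.

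EEF1A1, the factor that brings tRNA to the ribosome, stood at 4872, 5115 and 4990 CPM in nucleoplasm and at 15560, 16300 and 16900 CPM in cytoplasm (-1.70, SE 0.19). It had the largest share of counts in cytoplasm. Of 38 translation factors 32 were lower, and EEF2 was at -1.35, but EIF3A (1.54), EIF4G1 (1.47) and EIF4G3 (1.37) were higher. Of 39 proteasome subunits 37 were lower and 0 higher, with PSMA7 at -1.02 and PSMD2 at -0.76. FTH1, the iron-storage ferritin heavy chain, was at -2.45.

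In the authors' TPM, which are set per length, the same opposite shares appear. FN1 stood at 9240 ± 1503 TPM in nucleoplasm and 139 ± 22.04 TPM in cytoplasm, and EEF1A1 at 3705 ± 234 TPM and 14020 ± 485 TPM. FN1 was thus above EEF1A1 in nucleoplasm and far under it in cytoplasm (mean ± SD, n = 3 each).

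Most nuclear-coded mRNAs for proteins of mitochondria lay on the cytoplasmic side, unlike the mitochondrial RNAs. Of 77 mitochondrial ribosomal proteins 66 were lower, with a median of -1.16, among them MRPL37 at -1.54. MRPS25 (1.30), MRPL32 (1.26) and MRPS31 (0.61) were higher. The sign of MRPS31 turned under total counts (-0.14) and with the authors' TPM plus 1 (-0.21). Of 79 nuclear-coded respiratory chain subunits 61 were lower and 4 higher, with a median of -1.06. ATP5F1B, a subunit of ATP synthase, was at -1.07 and COX7C at -1.43, while SDHA (1.33), NDUFB9 (1.40) and COX6A1 (1.798) were higher, together with COX6A1P2, a pseudogene of COX6A1 whose reads may not be separable from it (2.30). COX7C and COX6A1 belong to the same complex as MT-CO1 (5.70), so its nuclear-coded subunits were found on both sides.

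Of 35 cytoskeleton genes 27 were lower and 7 higher. ACTB, ACTG1 and TUBB were at -0.91, -1.17 and -1.09. The exceptions included very long mRNAs: FLNA (2.63), which crosslinks actin, and MYH9 (2.02), a myosin heavy chain. Among cytosolic chaperones 17 of 27 were lower and 2 higher, and HSP90AB1 (-0.33) was not called. Of 35 aminoacyl-tRNA synthetases 17 were lower and 10 higher, beside 33.3% and 32.2% over all genes. Among the higher ones EPRS1 was at 2.69 and the mitochondrial IARS2 at 3.41.

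The regulators and markers of definitive endoderm, the epithelium that forms gut, liver and pancreas, had 9 of 26 members higher in nucleoplasm and 10 lower, near the shares found over all genes, but they were divided by the kind of protein. All 8 measured genes for secreted or membrane proteins were higher in nucleoplasm, with a median of 3.73, and of the 18 for soluble proteins 1 was higher and 10 lower, with a median of -0.68. This division was made after values had been seen. KIT, the receptor for stem cell factor, stood at 334.5, 272 and 322 CPM in nucleoplasm and at 13.35, 12.8 and 10.3 CPM in cytoplasm (4.67, SE 0.19). CXCR4, a chemokine receptor used to sort endoderm, stood at 37.0, 32.6 and 36.8 CPM against 3.63, 3.19 and 2.39 CPM (3.52, SE 0.23). CER1, a secreted antagonist of Nodal and BMP signals, stood at 30.25, 29.3 and 29.9 CPM against 6.55, 5.10 and 4.63 CPM (2.45, SE 0.22). All 3 genes were separated without overlap, each cytoplasm library lying under each nucleoplasm library.

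CDH2, EPCAM, FRZB and DKK1 were higher by 4.78, 3.93, 2.16 and 2.70. GATA6, a zinc finger regulator of endoderm, stood at 48.9, 46.2 and 45.02 CPM in nucleoplasm and at 95.6, 76.2 and 67.4 CPM in cytoplasm (-0.77, SE 0.17). SOX17, the regulator that defines definitive endoderm, stood at 65.9, 61.1 and 74.5 CPM against 145, 111 and 110 CPM (-0.86, SE 0.17). GATA4 and HNF4A were at -0.74 and -0.78, and TRIML2 (1.59) was the soluble one that was higher. The summed level of the 18 soluble genes was 492 to 504 CPM in nucleoplasm and 739 to 910 CPM in cytoplasm, while that of the 8 others was 6381 to 7059 CPM and 277 to 361 CPM. Read by its regulators, the same endoderm programme thus had the higher summed CPM in cytoplasm. Read by its surface and secreted markers, it had the higher summed CPM in nucleoplasm.

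**Figure D4:**
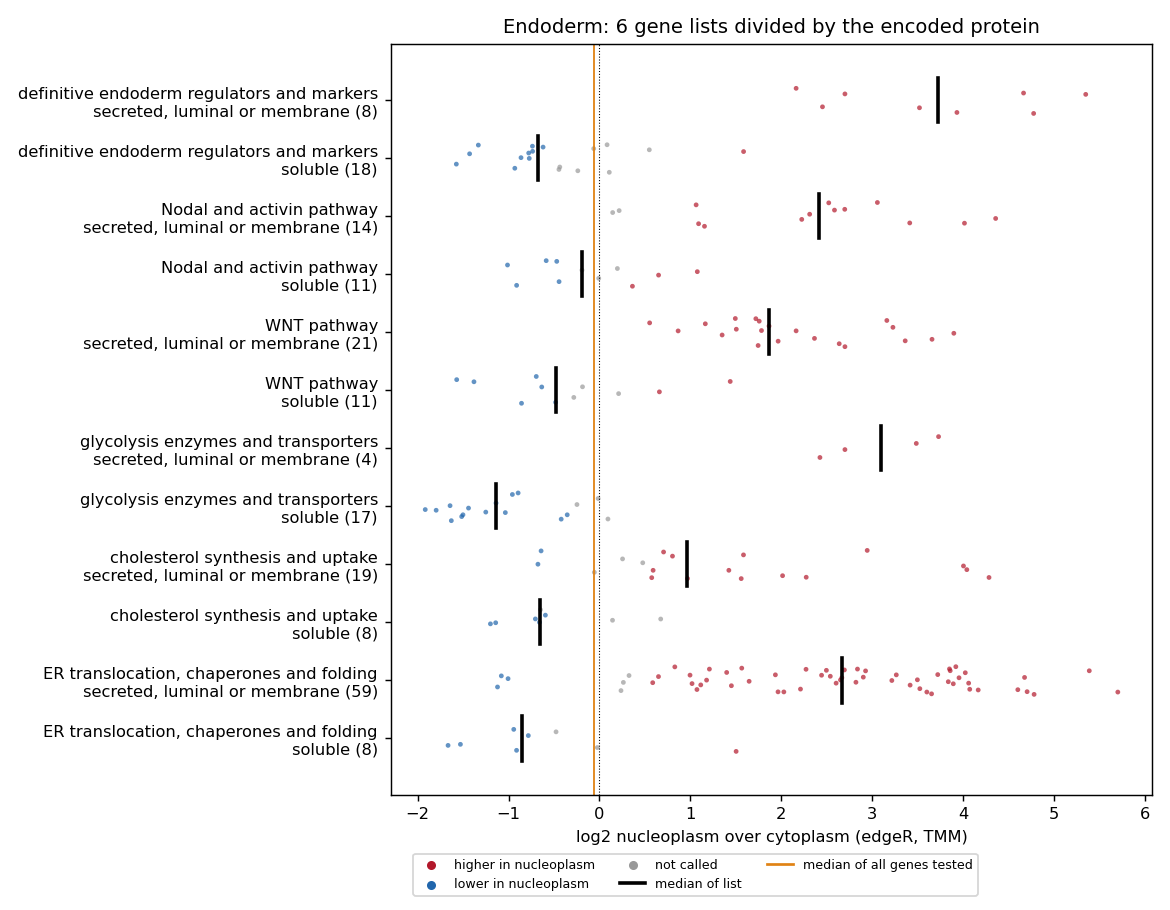
Log2 difference of nucleoplasm over cytoplasm for the genes of 6 lists, each divided into genes for secreted, luminal or membrane proteins and genes for soluble proteins (number tested in brackets); black bars are medians. In all 6 lists the secreted or membrane rows have the higher median, as in the endoderm list (3.73 against -0.68) and glycolysis (3.09 against -1.14). The lists were divided with earlier results of these data known.

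The signals that had been used to make these cells showed a similar layout, most clearly in their secreted and membrane members. Their lists, and those of glycolysis and cholesterol below, were also divided with earlier results of these data known. They are therefore no independent test of the division. Activin A acts through the receptors of the Nodal pathway, whose ligands and receptors are secreted or cross the membrane and whose SMAD proteins carry the signal to the nucleus. Of 14 ligands, receptors and other membrane members 12 were higher in nucleoplasm and 0 lower. Of 11 soluble members 3 were higher and 5 lower, with a median of -0.19, beside 32.2% higher and 33.3% lower over all genes. Under total counts 0 of these soluble members were higher and 8 lower. FST, a secreted activin antagonist, stood at 439, 439 and 464 CPM in nucleoplasm and at 95.1, 73.6 and 64.7 CPM in cytoplasm (2.52, SE 0.16). NOMO1, a membrane protein of the ER, differed by 4.36, though it has near-identical copies, the receptor ACVR2B by 1.06 and the protease FURIN, which cuts Nodal and other precursors, by 1.16. TDGF1, a membrane-anchored coreceptor, stood at 0.22 and PMEPA1 at 0.15, neither called. Their signs turned under total counts (-0.53 and -0.60). Of the transcription regulators, SMAD2 (-0.19) and SKI (-0.01) were not called, TGIF1 and TGIF2 were lower at -0.59 and -1.01, and FOXH1, the partner of SMADs on Nodal targets, was higher at 1.08.

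In the WNT pathway 21 of 21 membrane and secreted members were higher, with a median of 1.87, and of 11 soluble members 2 were higher and 6 lower. WLS, which escorts WNT proteins to the surface, stood at 1401, 1385 and 1398 CPM in nucleoplasm and at 134, 99.0 and 98.05 CPM in cytoplasm (3.66, SE 0.22). The receptors FZD7, FZD4 and LRP5 were higher by 2.64, 1.76 and 3.16, and the secreted inhibitor SFRP1 by 1.17. GSK3A, a kinase of the destruction complex, and TCF7L1, a DNA-binding partner of beta-catenin, were lower at -1.57 and -1.38. CTNNB1, beta-catenin itself, stood at 0.21 and was not called, and APC, a long mRNA for a scaffold of the same complex, was higher at 1.44.

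Glycolysis was split likewise. All 4 transporters of glucose and lactate were higher in nucleoplasm, with SLC2A1 at 2.70, SLC16A1 at 3.73 and SLC16A3 at 2.43, and of 17 enzymes 14 were lower and 0 higher. GAPDH stood at 922, 1090.0 and 967 CPM in nucleoplasm and at 3377, 3560.0 and 4308 CPM in cytoplasm (-1.92, SE 0.25). ALDOA, LDHB, ENO1 and PKM were lower at -1.64, -1.25, -1.14 and -0.89. Cholesterol synthesis runs from soluble enzymes to enzymes embedded in the ER membrane. Of its 19 membrane members 14 were higher and 2 lower, NSDHL (-0.68) and FDFT1 (-0.64), and of 8 soluble members 0 were higher and 5 lower. SREBF2, the membrane-bound precursor of a regulator of the pathway, was higher by 0.59. ACAT2, an early soluble enzyme, was at -1.20. The median of the whole cholesterol list turned from 0.59 to -0.16 under total counts.

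lncRNAs known to stay in the nucleus were mostly higher in nucleoplasm under TMM. Of 12 tested 9 were higher and 0 lower, with a median of 1.34, but under total counts 5 were higher and 2 lower, with a median of 0.59, and with the authors' TPM plus 1 it was 5 and 0. MALAT1, a lncRNA of nuclear speckles, stood at 968, 1408 and 1039 CPM in nucleoplasm and at 87.5, 134 and 72.6 CPM in cytoplasm (3.54, SE 0.50). FTX, TUG1 and SNHG14 were higher by 2.43, 1.44 and 1.02, and OIP5-AS1 (-0.45) was not called. MALAT1 was at a mean of 389 CPM in chromatin and at 46.8, 309 and 99.9 CPM in the nucleus libraries, under each of its nucleoplasm values. Of 19 genes that host snoRNAs 8 were higher and 7 lower, beside 32.2% and 33.3% over all genes. These counts were 1 and 10 under total counts and 2 and 9 with the authors' TPM plus 1. SNHG4 was at 1.54 and SNHG29 at -1.87, while GAS5 (-0.03) was not called. Long intergenic RNAs as a class had a median of 0.59 over 303 genes, 39.3% of them higher and 11.2% lower, beside a median of -0.12 over 11297 protein-coding genes. Under total counts their median turned to -0.15, with 20.5% higher and 27.1% lower, beside -0.87 for protein-coding genes. The libraries came from a kit that is not stated to keep strand, so antisense RNAs and the genes they overlap cannot be told apart. Antisense and divergent lncRNAs had 74 of 257 higher and 41 lower, and their median turned from 0.32 to -0.43 under total counts. Those of the LINC-named lncRNAs (0.34 to -0.41) and of 354 ZNF genes (0.26 to -0.49) did so as well.

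Genes of splicing were divided. Among 50 SR proteins and splicing regulators 22 were higher and 8 lower, with SRRM2 at 1.53 and DDX17 at 1.55 higher and DDX5 (0.52) not called, and the median turned from 0.46 to -0.29 under total counts. Of 29 hnRNP genes 0 were higher and 19 lower, with HNRNPA1 at -1.41. Chromatin factors (18 higher and 9 lower of 37, CHD4 at 2.04) and export and pore genes (15 higher and 11 lower of 40) also had medians whose sign turned under total counts (0.27 to -0.48 and 0.24 to -0.50). Over all genes 32.2% were higher and 33.3% lower, and the counts of export and pore genes are near these shares. Among export and pore genes NUP210, a pore protein that crosses the nuclear membrane, differed by 4.68, RANBP2 by 2.47 and XPO1 by 1.19. Of 50 replication and mitosis genes 9 were higher and 19 lower. The higher ones included MKI67 (2.61) and CENPF (2.65), long mRNAs of dividing cells. Of 36 immediate early and short-lived mRNAs 2 were higher and 16 lower, with ID1 and ID3, targets of BMP signals, at -0.72 and -1.005.

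The largest falls among genes with a mean of at least 10 CPM in cytoplasm were those of RN7SL1 and RN7SL2. RN7SL1, the RNA of the signal recognition particle, stood at 3.68, 13.4 and 8.50 CPM in nucleoplasm and at 353, 294 and 224 CPM in cytoplasm (-5.09, SE 0.63), and its copy RN7SL2 differed by -4.99. They are near-identical, and their reads may have been divided between them. Other large falls were those of TMEM183BP (-3.22), PPDPF (-2.57), LCK (-2.56), RPPH1, the RNA of RNase P (-2.55), RPL39L (-2.37), SH3BGRL3 (-2.35) and DGCR6L (-2.33). LCK, a kinase of T cells, stood at 4.92, 19.0 and 21.9 CPM in cytoplasm, the first library being low. Replication-dependent histone mRNAs, which lack a poly(A) tail, were at low levels in both fractions: 12 of 20 were lower in nucleoplasm, among them H2AC25 at -1.32, and together they held 0.00169% of the nucleoplasm and 0.00790% of the cytoplasm libraries.

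Pluripotency genes leaned to the cytoplasm, with 1 of 18 higher and 9 lower. POU5F1, which codes for OCT4, stood at 300.0, 365 and 339 CPM in nucleoplasm and at 1183, 1372 and 1555 CPM in cytoplasm (-2.03, SE 0.18), and LIN28A was at -1.55. The higher one was ZSCAN10 (0.46), whose sign turned under total counts (-0.29). Cytoplasm replicate 1 stood apart here. It also had the highest summed level of the soluble endoderm genes, at 910 CPM against 739 and 748 CPM in the other cytoplasm libraries. DNMT3B was at 314 CPM in this library and at 644 and 643 CPM in the other two, against 283.5, 271 and 262.5 CPM in nucleoplasm (-0.97, SE 0.24). ESRG, a lncRNA of pluripotent cells, was at 149 CPM in that library and at 436 and 453 CPM in the others, and its groups overlapped. Among markers of other germ layers, the membrane and secreted KDR (4.35), PDGFRA (4.63) and BMP4 (1.31) were higher in nucleoplasm. The soluble HAND1 (-0.86) and TUBB3 (-1.30) were lower, but the soluble ISL1 and PAX6 stood at -0.07 and -0.05. NES, a filament protein with a long mRNA, was higher at 2.04. Mesoderm markers had 3 of 11 higher, 3 lower and 5 not called, and neuroectoderm markers 2 of 5 higher, 2 lower and 1 not called.

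Single isoforms were tested as well, over 26389 transcripts, of which 9967 (37.8%) were called, 5470 higher (20.7%) and 4497 lower (17.0%). How reads were divided among isoforms of a gene is an estimate, so these values are less certain than gene sums. Of the calls 54.9% were higher, and 33.2% under total counts. Transcripts annotated with a retained intron were higher in 291 of 547 cases (53.2%) and lower in 19 (3.47%), with a median of 1.63, beside -0.49 over 12772 protein-coding transcripts. New isoforms of known genes had a median of 0.66 over 10803, and transcripts with an Ensembl ID one of -0.42 over 15437. In 5879 genes with at least 2 tested transcripts, 530 (9.02%) had isoforms called in opposite directions, and 165 of these had a gene sum that was not called.

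The isoforms with the largest differences were listed at 0 counts in each library of 1 fraction. An isoform of BAZ2A was at 19.3, 45.2 and 8.60 CPM in nucleoplasm, and its mean was at least 162-fold higher there, while the gene sum stood at 0.05. This takes 3 counts per library as the floor of a count of 0. All such bounds here use the mean of the higher fraction, so its lowest library gives a smaller ratio. Isoforms of PCDHA10, COL4A5, COL4A6 and KIAA1671 were at least 221-fold, 154-fold, 121-fold and 118-fold higher. An isoform of DENND1A was at 26.0, 20.9 and 27.3 CPM in cytoplasm and at 0 in nucleoplasm, at least 87.9-fold lower there, with a gene sum at 0.09. Isoforms of C7orf50, KNOP1, UBE2D3 and PHKG2 were at least 67.5-fold, 65.1-fold, 58.6-fold and 45.8-fold lower. For BAZ2A, DENND1A, KNOP1 and PHKG2 the gene sum was not called.

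The same contrast was then compared with that in undifferentiated hPSC and in ectoderm, over 11281 genes of all 3 tables. The tables were assembled and quantified separately, and cell type and assembly cannot be told apart. The difference of nucleoplasm over cytoplasm was larger in endoderm than in hPSC for 2322 genes (20.6%) and smaller for 1968 (17.4%). Against ectoderm it was larger for 2895 (25.7%) and smaller for 2436 (21.6%). These splits depend on the scaling. Of the calls 54.1% were above hPSC, but 64.9% with DESeq2 size factors, 41.4% with upper quartiles and 10.3% with total counts. Of the calls against ectoderm 54.3% were above, with 58.7%, 42.2% and 16.4% under the same alternatives. The 2 comparisons share the endoderm libraries.

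Secreted and matrix mRNAs had medians of 4.72 in endoderm, 2.60 in hPSC and 1.68 in ectoderm over 50 shared genes. The endoderm difference was above that of hPSC for 47 and below for 0, and above that of ectoderm for 48 and below for 0. Receptors had medians of 3.73, 2.59 and 1.67, with 48 of 55 above hPSC and 54 above ectoderm. VWF, a large secreted glycoprotein of vessels, stood at a mean of 92.5 CPM in endoderm nucleoplasm and 1.74 CPM in cytoplasm, against 1.34 and 1.35 CPM in hPSC. Its difference was larger in endoderm by 5.72 than in hPSC and by 3.16 than in ectoderm. ER genes had medians of 2.59, 1.85 and 0.62, with 41 of 67 above hPSC and 5 below. For the transporters outside SLC25 (1.58, 1.41 and 0.77) 41 of 153 were above hPSC and 17 below, and this order turned under total counts, to 11 above and 68 below.

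Under total counts matrix genes had 40 above hPSC and 1 below, receptors 29 and 2, and ER genes 24 and 20. With TMM, mitochondrial RNAs had medians of 5.79, 5.04 and 2.81, with all 15 above ectoderm, and 7 above hPSC and 0 below. With total counts 14 were above ectoderm and 0 below, and 3 were above hPSC and 2 below. MT-ND5 was above ectoderm by 4.25. The mitochondrial share of the cytoplasm libraries was 0.936% to 1.58% in ectoderm, 0.399% to 0.615% in hPSC and 0.423% to 0.460% in endoderm, and that of the nucleoplasm libraries 7.91% to 9.77%, 10.4% to 11.4% and 10.2% to 11.9%. Each ectoderm cytoplasm library thus had a larger mitochondrial share than any endoderm cytoplasm library. Its part in the differences of the other lists was not tested. On the other side, proteasome subunits (-1.05, -0.70 and -0.60) and ribosomal proteins (-1.57, -1.38 and -1.18) had their lowest medians in endoderm, with 20 of 39 and 20 of 83 below ectoderm. The latter count is near the 21.6% found over all genes.

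**Figure D5:**
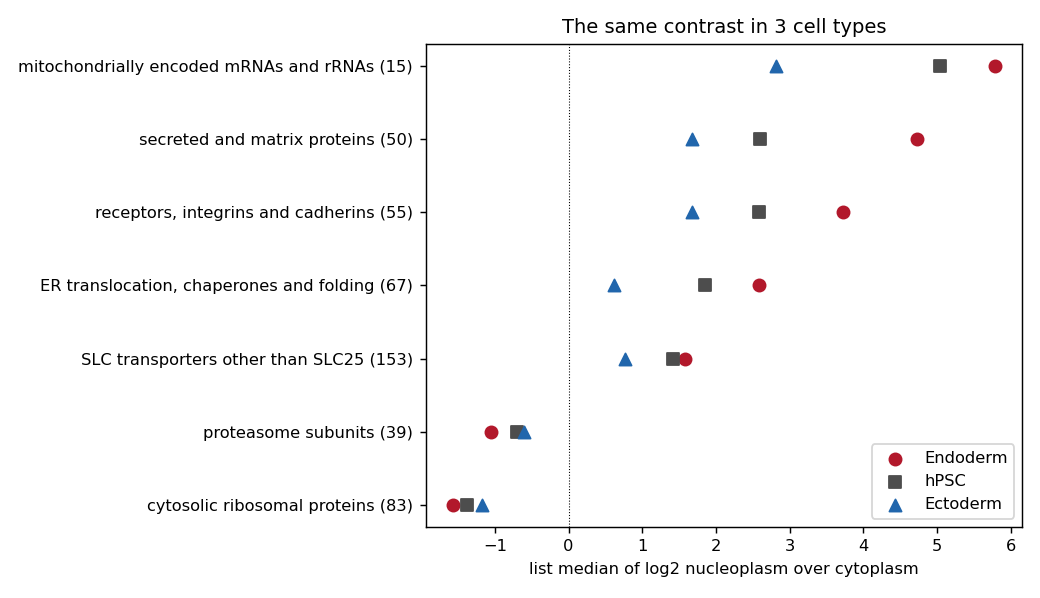
List medians of the log2 difference of nucleoplasm over cytoplasm in endoderm, hPSC and ectoderm, over the genes shared by the 3 tables (number in brackets). With TMM, endoderm has the highest median for mitochondrial, matrix, receptor, ER and transporter lists and the lowest for proteasome and ribosomal protein genes. Under total counts 11 transporters were above hPSC and 68 below.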

How the data were processed

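RNA of subcellular fractions was sequenced on an Illumina NovaSeq from NEBNext Ultra libraries, per the labels' protocols. The submitters' processing notes name STAR, RSEM and hg38, with no versions. The deposited count tables hold the authors' counts per assembled transcript as whole numbers, treated here as estimated counts because RSEM is named; whether they were rounded is not given in the sources used here. The authors' TPM, deposited beside them, served as an alternative and for levels per length. Transcript counts were summed per Ensembl gene. A further 1 column of per-sample values matched no sample and was not used.

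Fits used edgeR 4.0.16 in R 4.3.3: TMM factors, a minimum count of 10 by filterByExpr, and the two-sided quasi-likelihood F test over all 12 endoderm libraries, or 18 libraries for differences between cell types. P-values were adjusted by Benjamini-Hochberg over all features tested and called under 0.05. Standard errors (SE) were derived from the F statistics. In simulated counts over 12492 genes, 98 were changed by 1 and 97 by 2 on the log2 scale, in either direction. Of these 76.5% and 96.9% were recovered, and 0.0732% of unchanged genes were called. In the data 65.4% of genes were called, so these rates need not hold there. Alternatives were other scalings and filters, DESeq2 1.42.0, limma 3.58.1 on the authors' TPM (pseudocounts 1 and 0.1), and a replicate block. Further ones left out each library of the contrasted groups in turn or used the 6 libraries alone.

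The members and lists were chosen with earlier results of these data known. Named were the 12 largest rises and falls with no overlap and a mean of at least 10 CPM in the higher fraction, the 5 genes with most counts per fraction, up to 5 members per list by mean CPM, 5 isoforms and 5 differences between cell types per direction. Other members of lists, among them exceptions, were named after their values were seen. Gene types, positions and coding sequences came from GENCODE 29 on GRCh38, matched by Ensembl ID, which gave a type for 97.8% of genes. Counts were summed over rRNA-locus features as well, which have many copies and are not discussed as results. A few genes that meet these rules are not reported here.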

Additional observations from a re-analysis of the deposited data

Results flagged for a closer look

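The difference of nucleoplasm over cytoplasm departed from that of hPSC for 4290 genes and from that of ectoderm for 5331 genes, by edgeR's test of the difference between cell types. Tables were assembled separately for each cell type, and several of the largest departures rest on values listed at 0 or on near-identical gene copies, so these are uncertain. CPM here are scaled over the 18 libraries of the 3 cell types and differ slightly from those given for endoderm alone.

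Against hPSC, ENSG00000276965 departed by 11.34, with 0 CPM in each hPSC nucleoplasm library and 132, 163 and 135 CPM in endoderm nucleoplasm. SLX1A departed by 9.01 and ENSG00000274333 by 6.83, and both had counts in endoderm in nucleoplasm replicate 2 only. VWF departed by 5.72 and SLC25A33 by 4.73. SLC25A33, a mitochondrial carrier, was at a mean of 3.17 CPM in endoderm nucleoplasm and 0.231 CPM in cytoplasm, and at 21.2 and 42.3 CPM in hPSC. On the other side stood U2AF1 at -10.94, with 0 CPM in each endoderm nucleoplasm library and a near-identical copy elsewhere in the genome. ENSG00000280441, a feature of the rRNA locus, was at -6.92, and a single hPSC nucleoplasm library held 4974 CPM of it against 7.77 and 3.17 CPM in the other two. RN7SL1 was at -5.36, with means of 10.5 and 334 CPM in endoderm nucleoplasm and cytoplasm and 1028 and 795 CPM in hPSC. SMCHD1 (-4.24) and TATDN1 (-4.15) were near 0 CPM in hPSC cytoplasm.

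Against ectoderm, SLX1A departed by 9.09, MT-ATP8 by 5.79, MTCO1P12 by 5.49, SLC25A33 by 4.42 and MT-ND5 by 4.25. ENSG00000263244 was at -10.38, with 0 CPM in each ectoderm cytoplasm library, and U2AF1 at -10.37. HMCN1 was at -2.86, H2AC6 at -2.83 and PACRGL at -2.53. HMCN1, a large matrix protein, stood at 2.08, 1.23 and 2.70 CPM in endoderm nucleoplasm and at 1.59, 5.56 and 7.14 CPM in cytoplasm, which overlap, and at means of 32.4 and 10.48 CPM in ectoderm.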

How the results depend on the processing

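With a change of at least 1 on the log2 scale required, 5160 genes were called between the endoderm fractions, and 1422 and 2208 genes for the difference from hPSC and ectoderm. Scaling to total counts gave 7635 and 8609 calls for these differences, of which 786 and 1411 lay above the other cell type. By genes, DESeq2 called 8477 between the fractions.

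Leaving out each library of the contrasted groups in turn gave 7351 to 7645 genes and 8253 to 8594 transcripts. Differences numbered 3735 to 4743 from hPSC and 4771 to 5140 from ectoderm. No nucleus or chromatin library was left out singly, nucleus replicate 1 included. Same-numbered nucleoplasm and cytoplasm libraries had correlations of deviations from their group means of 0.0959, -0.186 and -0.100. With 3 libraries per group, these values cannot show whether same-numbered libraries came from the same cells. With the replicate block 7981 genes, 9115 transcripts, 4132 and 5214 differences were called.

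Of 173 genes named between the fractions 148 kept their call under all alternatives, 13 lost a call, 10 gained one and 4 changed sign under at least 1. A change of sign was counted only where the main or the alternative fit called the gene, so uncalled genes near 0 may have turned as well. Total counts turned TDGF1 (-0.53), ZSCAN10 (-0.29), PMEPA1 (-0.60) and MRPS31 (-0.14), and the authors' TPM turned MRPS31 with pseudocounts of 0.1 (-0.22) and 1 (-0.21). Total counts moved the median of all genes by -0.75, and these 4 genes moved by about the same amount. The cause of the changes of sign was not tested. Over the libraries left out, PMEPA1 ranged from -0.006 to 0.32, so its sign was not stable there either. Without endoderm nucleoplasm replicate 2, SLX1A fell to 0.61 against hPSC and 0.67 against ectoderm and lost its calls, and ENSG00000274333 stood at -0.72, the low end of a range up to 7.48 over the libraries left out. Without hPSC nucleoplasm replicate 2, ENSG00000280441 stood at 1.35, the high end of a range from -7.50. All 10 named isoforms kept direction and call.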
